A study of Mus musculus with 24 samples.

Results

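Introduction of full-length NFIA into cells labelled Cre was examined at day 7 of thermogenic adipocyte differentiation, by comparing 3 Cre + NFIA libraries with 3 libraries labelled Cre, 6 of the 24 RNA-seq libraries of the study. Of the 24825 genes listed, 11924 had an FPKM (fragments per kilobase of gene and per 1000000 counted fragments) of at least 1 in at least 3 of the 6 libraries and were tested. All cells were stromal vascular fraction (SVF) cells of mouse inguinal white adipose tissue with Nfia flox/flox alleles, in which exon 2 of Nfia is flanked by loxP sites, and all had been immortalised with SV40 large T antigen. The ctrl cells carried an empty retrovirus and the other cells a retrovirus for Cre recombinase. Cre + NFIA cells also carried 3xFLAG-tagged mouse NFIA from a retroviral vector, and Cre + NFIA Δpro#3 cells the same protein without a C-terminal proline-rich segment called pro#3. Both agents thus act in cultured cells under a viral promoter, not from the Nfia locus. Each of these 4 groups was sampled at day 0 and at day 7 with 3 replicates. Confluent cells received a 48 h induction that contained dexamethasone, IBMX and indomethacin, and rosiglitazone, T3 and insulin throughout. The question was which part of the day 7 transcriptome differs when full-length NFIA is introduced.

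NFIA belongs to the nuclear factor I family of transcription factors, which bind a palindromic DNA sequence as dimers. In adipose cells it is known as a regulator of brown and beige fat genes that acts with PPARγ, the nuclear receptor that directs fat cell formation. A differentiating fat cell stores triglyceride in lipid droplets, secretes adipokines and, in brown and beige fat, oxidises fatty acids in many mitochondria, while precursors make extracellular matrix, growth factors and Wnt antagonists.

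The 6 libraries held 9.15 to 14.62 M reads (M, 1000000), with 12.46 to 14.62 M in Cre + NFIA and 9.15 to 11.99 M in libraries labelled Cre. Nfia lies on chromosome 4 of mm9 from 97439425 to 97868605. The day 7 Cre + NFIA libraries held Nfia at 97.1, 89.0 and 83.9 FPKM, and it stood at 10.7, 10.1 and 9.49 FPKM where the label was Cre, with no overlap between groups. These values include reads from the transgene. In ctrl Nfia was at 9.81, 9.15 and 9.70 FPKM, so the libraries labelled Cre had no lower gene-level value than ctrl. It covers the whole gene and not the floxed exon alone, so it does not check the Cre label. The paper itself reports efficient recombination by genomic PCR, and near-complete loss of NFIA mRNA and protein in Cre-expressing cells. In these libraries the Nfia values mark which ones carry the transgene, while the directions below also rest on the Cre label.

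The adipocyte markers Adipoq, Plin1, Fabp4, Cidec, Lipe and Pparg were present in all 6 libraries. Their summed level was 18500 to 18700 FPKM in Cre + NFIA and 3790 to 8440 FPKM in libraries labelled Cre. The 3 libraries labelled Cre stood apart from one another, with 6788 FPKM in replicate 1, 8436 in replicate 2 and 3795 in replicate 3. Fabp4 gave most of these sums, at 14490 to 14710 FPKM in Cre + NFIA and 2914 to 6611 FPKM in libraries labelled Cre. Each of the other adipocyte markers was also higher in every Cre + NFIA library than in any library labelled Cre. The summed level of 6 fibroblast or precursor markers (Pdgfra, Pdgfrb, Col1a1, Col3a1, Dcn, Thy1) moved the other way, from 1440 to 1650 FPKM in libraries labelled Cre to 588 to 667 FPKM in Cre + NFIA. Col1a1 and Col3a1 gave most of that sum, and Dcn alone among these markers overlapped between the groups. Macrophage markers summed to 3.90 to 5.50 FPKM in Cre + NFIA and 5.19 to 7.25 FPKM in libraries labelled Cre, with Adgre1 and Ptprc at 0 in all 6, and endothelial markers summed to 1.98 to 2.62 and 2.65 to 2.78 FPKM, with Emcn at 0. In bulk samples a larger share of cells that make a transcript and more of it per cell cannot be told apart, and that holds for every result below.

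With full-length NFIA 459 genes were called, 3.85% of those tested, by a limma test with an adjusted p (Benjamini-Hochberg) below 0.05 together with a minimum change of 3-fold on the log2(FPKM + 1) scale. Of these 269 were higher (2.26% of genes tested) and 190 lower (1.59%). The rises were larger than the falls. 23 genes rose by at least 10-fold and none fell by that much on this scale, and the median log2 change was 1.94 over genes called higher and -1.76 over genes called lower. By the adjusted p alone, without the 3-fold limit, 65.0% of genes passed, 3377 of them higher (28.3%) and 4370 lower (36.6%). Higher genes were 58.6% of the calls as deposited, 61.5% after quantile normalization and 67.3% with median-of-ratios size factors. Their share was 71.2% with a pseudocount of 5, but 49.5% with one of 0.1 and 48.2% with limma voom on recovered reads. With the pseudocount of 0.1 and with voom more genes were thus called lower than higher. Using size factors, the counts at the adjusted p alone became 3920 higher and 3803 lower, which turns their balance. The median log2 change of all genes tested was -0.05. Without replicate 3 of the libraries labelled Cre, which had the lowest adipocyte marker level, 212 genes were higher and 165 lower, and without replicate 2, which had the highest, 337 were higher and 205 lower. In 457 of the 459 genes the 3 values of one group all lay above the 3 of the other, which held for 72.0% of all genes tested. Of the genes called higher, 61 entered the test through Cre + NFIA alone, and 12 of those called lower through libraries labelled Cre alone, so these had to differ. Nothing in the labels says whether replicates were separate cultures, so the p-values measure the spread between these libraries, which may be technical.

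**Figure D1:**
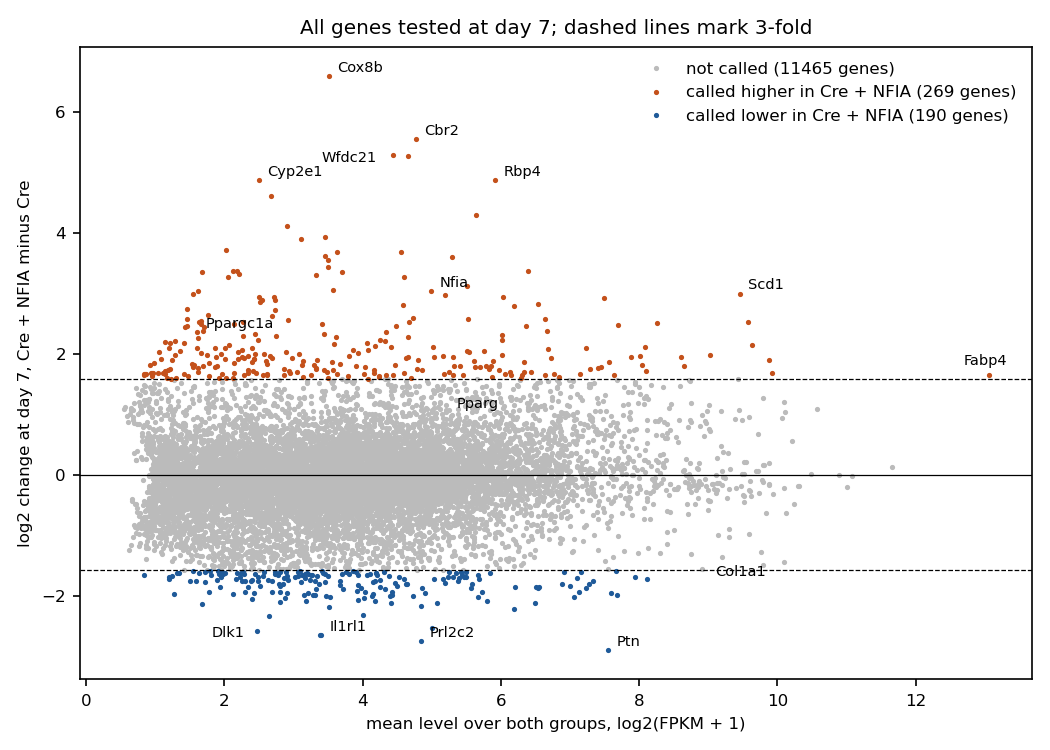
Each point is 1 of the 11924 genes tested at day 7. The horizontal axis is the mean of the 2 groups' levels on the log2(FPKM + 1) scale and the vertical axis the log2 change of Cre + NFIA against libraries labelled Cre. Orange points are the 269 genes called higher, blue points the 190 called lower and grey points the rest, and the dashed lines mark 3-fold. The orange points reach 6.59 (Cox8b), and the blue points reach -2.91 (Ptn).

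The largest rise was that of Cox8b, a subunit of cytochrome c oxidase made in brown fat, heart and muscle (mm9 chromosome 7, 148084842 to 148086345). It was at 109.7, 114.9 and 107.0 FPKM in Cre + NFIA and at 0.230, 0 and 0.249 FPKM in libraries labelled Cre. Both groups were far apart, and the libraries labelled Cre held 2 Cox8b reads in all. Its log2 change was 6.59 (SE 0.128, limma adjusted p = 2.18e-11). In reads this was 1623 against 2 over each group's libraries, a ratio of 645 per read sequenced with an exact 95% interval of 178 to 5330 for counting error only. Cyp2e1, a cytochrome P450 enzyme, was at 29.6, 34.9 and 24.5 FPKM in Cre + NFIA and at 0, 0.0629 and 0.0522 FPKM in libraries labelled Cre, a ratio of 821 in summed reads (exact 95% interval 227 to 6780).

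Cbr2, Rbp4, Ces1d and Ces1f were also among the 12 largest rises. Cbr2, a carbonyl reductase (chromosome 11, 120590803 to 120593428), was at 179.4, 179.3 and 197 FPKM in Cre + NFIA and 2.86, 3.64 and 2.48 FPKM in libraries labelled Cre (log2 change 5.55, SE 0.144, limma adjusted p = 1.37e-10). Rbp4, the retinol carrier that fat and liver secrete (chromosome 19, 38191110 to 38199811), was at 307, 346 and 313 FPKM against 9.90, 13.7 and 7.40 FPKM (log2 change 4.87, SE 0.195). In both genes the lowest Cre + NFIA library lay more than 10-fold above the highest library labelled Cre. Ces1d, a carboxylesterase that hydrolyses stored lipid, was at 151, 157 and 151 FPKM against 3.22, 4.22 and 1.93 FPKM (log2 change 5.26, SE 0.225). Ces1f, a neighbouring carboxylesterase of the same family, was at 38.9, 41.7 and 43.6 FPKM against 1.74, 2.51 and 1.28 FPKM (log2 change 3.92, SE 0.182). The 2 genes resemble each other, and reads that align to both were left out by the authors' counting, so their values are less certain than those of single-copy genes.

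The remaining 6 of the 12 largest rises came from several kinds of gene. Wfdc21, which encodes a small secreted WAP-domain protein, rose from a mean of 2.60 ± 1.75 (SD, n = 3) to 128 ± 13.6 FPKM, a log2 change of 5.28 (SE 0.262). Hoxb13, a homeobox factor of the posterior body, was at 30.2, 31.0 and 30.2 FPKM in Cre + NFIA against 0.244, 0.319 and 0.331 FPKM (log2 change 4.60, SE 0.105). Ppp1r1a, an inhibitor of protein phosphatase 1, was at 214, 208 and 213 FPKM against 10.5, 15.6 and 5.80 FPKM (log2 change 4.28, SE 0.331). Its SE was the largest of the 12. Its libraries labelled Cre were in the same order as the adipocyte markers, as were those of Cbr2, Wfdc21, Ces1d, Rbp4, Ces1f and Chdh. Nos3, the endothelial nitric oxide synthase, was at 30.4, 29.2 and 31.0 FPKM against 1.07, 0.716 and 0.637 FPKM (log2 change 4.12, SE 0.125). Of the 5 endothelial markers Emcn was at 0 in all 6 libraries and Cdh5 had at most 2 reads, while Pecam1 was at 0.268, 0.337 and 0.390 FPKM in Cre + NFIA against 0.0751, 0.0328 and 0.109 FPKM, Kdr at 1.24, 0.943 and 1.46 FPKM against 0.827, 0.682 and 0.715 FPKM, and Tek at 0.713, 0.700 and 0.771 FPKM against 1.74, 2.07 and 1.83 FPKM. Their part in the Nos3 value was not tested. Pla2g2e, a secreted phospholipase, rose by 3.90 on the log2 scale (SE 0.212) and Chdh, the first enzyme of choline oxidation, by 3.71 (SE 0.0832). All 12 of these genes stayed called under every alternative setting that was run. Cox8b, Cyp2e1, Hoxb13 and Chdh entered the test through Cre + NFIA alone, so that they were higher there follows from the filter.

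The largest falls were led by Ptn, Prl2c2, Il1rl1, Slc6a17 and Dlk1. Ptn, the growth factor pleiotrophin (chromosome 6, 36665663 to 36761361), was at 64.7, 64.9 and 72.7 FPKM in Cre + NFIA and at 517, 475 and 544 FPKM in libraries labelled Cre (log2 change -2.91, SE 0.0771, limma adjusted p = 1.48e-10). Dlk1, a membrane protein of fat precursors that inhibits adipogenesis, was at 1.08, 1.30 and 1.45 FPKM against 11.8, 13.0 and 13.0 FPKM (log2 change -2.58, SE 0.0937). Il1rl1, the interleukin-33 receptor ST2, was at 2.76, 3.41 and 3.37 FPKM against 25.2, 20.2 and 31.9 FPKM (log2 change -2.66, SE 0.156). In each of the 3 genes the spread within a group was small beside the gap between the groups. Sfrp1, a secreted Wnt antagonist, was at 34.5, 28.6 and 35.8 FPKM against 159.8, 136 and 176 FPKM (log2 change -2.22, SE 0.129). Slc6a17, a neutral amino acid transporter, was at 3.09, 3.00 and 3.44 FPKM against 26.1, 23.0 and 26.8 FPKM (log2 change -2.65, SE 0.0981). The matricellular gene Smoc2 fell by 2.34 on the log2 scale and the matrix gene Abi3bp by 2.33. Lrrc17 fell by 2.54, the T-type calcium channel gene Cacna1g by 2.19, Lrrc32, whose product holds latent TGF-β at the cell surface, by 2.17, and the RNA-binding protein gene Msi1 by 2.14. Prl2c2, of the proliferin family, fell by 2.76, but its near-identical family members make this value uncertain. Of these 12 genes Dlk1, Smoc2 and Msi1 did not pass the 3-fold limit with a pseudocount of 5, with values of -1.49, -1.41 and -0.95. Msi1 entered the test through libraries labelled Cre alone.

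**Figure D2:**
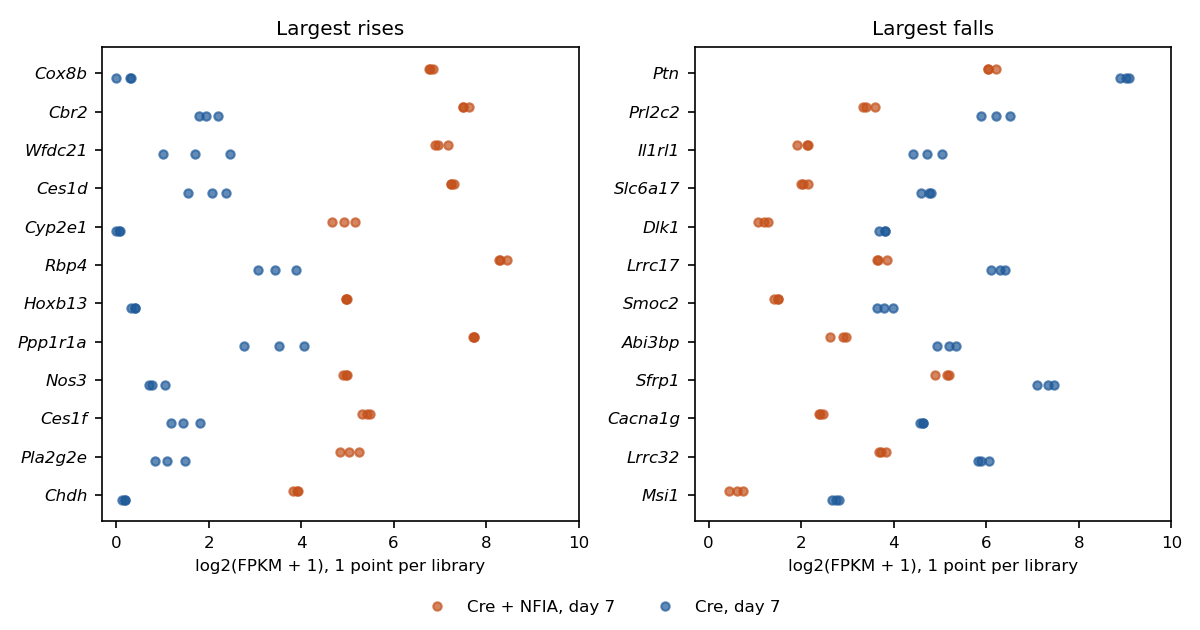
Each row is a gene and each point 1 library at day 7, orange for Cre + NFIA and blue for libraries labelled Cre, on the log2(FPKM + 1) scale. The 12 largest rises are on the left and the 12 largest falls on the right. In every row the 3 orange points lie on one side of the 3 blue points, because only such genes were chosen. The same held for 72.0% of all genes tested. Rbp4, for example, lay between 307 and 346 FPKM in Cre + NFIA and between 7.40 and 13.7 FPKM in the other group.

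The promoter bases just before 4 of the genes are shown because they are where letters known to be bound by nuclear factor I and by PPARγ could be read. The 250 bases before the first RefSeq start were read for 9163 of the 11907 tested genes with a usable symbol. Both strands were searched for the full nuclear factor I site (TTGGC, any 5 bases, GCCAA), its shorter one-sided form TTGGCA, the PPAR:RXR direct repeat (AGGTCA, any 1 base, AGGTCA) and the C/EBP palindrome TTGCGCAA. The short site was present in 32 of 180 windows of genes called higher (17.8%), in 15 of 134 of genes called lower (11.2%) and in 901 of all 9163 (9.83%). The full site was in 0 of the 180, 0 of the 134 and 4 of all windows, the direct repeat in 0, 0 and 3, and the C/EBP palindrome in 1, 1 and 25. These are counts of letters with no test, and say nothing of binding. The genes shown are those of the 2 largest rises and the largest fall whose 250 bases are free of annotated transcript sequence, with Pparg at its most downstream start, that of the adipocyte form. Capitals mark that short site on either strand. On GRCm38.p6 the Cox8b bases are chr7:140900447-140900696, minus strand, those of Rbp4 chr19:38125322-38125571, minus strand, those of Il1rl1 chr1:40429320-40429569, plus strand, and those of Pparg chr6:115421816-115422065, plus strand, each written 5′ to 3′ on the gene's strand.
Cox8b: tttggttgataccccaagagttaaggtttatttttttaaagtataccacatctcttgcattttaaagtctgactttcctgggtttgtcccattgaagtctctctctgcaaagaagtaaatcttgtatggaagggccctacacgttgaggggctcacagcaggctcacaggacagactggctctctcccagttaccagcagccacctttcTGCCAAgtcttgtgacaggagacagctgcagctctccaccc
Rbp4: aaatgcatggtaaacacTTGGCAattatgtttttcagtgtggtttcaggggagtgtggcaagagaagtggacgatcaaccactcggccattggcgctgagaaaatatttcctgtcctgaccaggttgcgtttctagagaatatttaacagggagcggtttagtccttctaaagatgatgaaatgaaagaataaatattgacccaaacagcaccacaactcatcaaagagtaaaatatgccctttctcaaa
Il1rl1: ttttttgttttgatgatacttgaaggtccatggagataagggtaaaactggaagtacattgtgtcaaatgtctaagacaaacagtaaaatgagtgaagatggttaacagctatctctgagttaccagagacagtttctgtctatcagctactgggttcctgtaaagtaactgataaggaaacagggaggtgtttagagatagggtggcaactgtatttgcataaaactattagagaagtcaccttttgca
Pparg: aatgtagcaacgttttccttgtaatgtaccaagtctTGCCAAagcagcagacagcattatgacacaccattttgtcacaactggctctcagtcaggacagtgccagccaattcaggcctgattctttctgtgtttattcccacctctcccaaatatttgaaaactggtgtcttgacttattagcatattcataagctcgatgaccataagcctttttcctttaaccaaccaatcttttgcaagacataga
Cox8b, Rbp4 and Pparg each hold 1 short site and no other of the 4 motifs, and Il1rl1 holds none.

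The nuclear factor I family itself has 4 members. Besides Nfia (log2 change 3.04, SE 0.0719), Nfib was at 13.1, 13.4 and 11.7 FPKM in Cre + NFIA and 4.67, 5.85 and 3.73 FPKM in libraries labelled Cre. Its log2 change of 1.27 (SE 0.17, limma adjusted p = 3.11e-05) did not reach 3-fold. Nfix went the other way, at 32.1, 32.3 and 32.6 FPKM against 60.7, 62.8 and 67.5 FPKM, with a log2 change of -0.95. Nfic differed little, with a log2 change of -0.20. Only Nfia among the 4 was called, while each of the 4 passed the adjusted p alone.

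The counts over gene lists that follow are read beside the shares of all genes tested, of which 2.26% were called higher and 1.59% lower, and 28.3% were higher and 36.6% lower by the adjusted p alone. Among 20 tested adipogenic transcription factors 2 were called higher (10.0%) and none lower, with a median log2 change of 0.28 beside -0.05 for all genes. Pparg, which lies on chromosome 6 from 115311239 to 115440419, had 60.2, 63.2 and 56.5 FPKM with NFIA and 24.1, 27.0 and 16.3 FPKM in libraries labelled Cre. Even the lowest Cre + NFIA library held more than the highest library labelled Cre, but the log2 change of 1.41 (SE 0.183, limma adjusted p = 2.42e-05) was under the 3-fold limit. Cebpa, which with PPARγ maintains the fat cell state, had a log2 change of 1.28. Called were Nr1h3, the liver X receptor of fat cells (log2 change 1.78, SE 0.243), and Srebf1, a lipogenic factor (log2 change 1.64, SE 0.137). Neither was called without replicate 3 of the libraries labelled Cre, with values of 1.53 and 1.46. Klf4, an early factor of adipogenesis, and Gata2, an inhibitor of it, had log2 changes of -1.45 and -1.42, both past the adjusted p alone and under 3-fold. Klf5 had at most 16 reads in a library and was not tested.

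In 5 lists of genes that take up, build, store and release fat, members were called higher and none was called lower, though most members did not pass the 3-fold limit. In triglyceride synthesis 7 of 14 tested members rose, beside 2.26% of all genes, with a median log2 change of 1.74. Pnpla3 was at 42.6, 44.0 and 42.3 FPKM against 2.73, 3.27 and 1.50 FPKM (log2 change 3.69). Pck1, the enzyme of glyceroneogenesis, was at 33.6, 34.8 and 40.1 FPKM against 2.58, 2.55 and 2.18 FPKM (log2 change 3.43). Dgat2, which makes triglyceride, was at 241.5, 242 and 232 FPKM against 42.8, 53.7 and 25.8 FPKM (log2 change 2.58). Aqp7, Gpd1, Agpat2 and Mogat1 made up the other calls. Mogat1 was at 0, 0.181 and 0 FPKM in libraries labelled Cre and so entered the test through Cre + NFIA alone, and it was not called with a pseudocount of 5 (1.13). Lpin2 was lower by the adjusted p alone, at -0.53.

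In fatty acid uptake and binding 5 of 12 rose (41.7%, beside 2.26% of all genes, median 1.19). Cd36, a fatty acid transporter, was at 688, 736 and 711 FPKM against 141.8, 160.4 and 85.4 FPKM, and rose, and Fabp3, a fatty acid binding protein of brown fat and muscle, at 14.3, 14.9 and 11.8 FPKM against 0.521, 0.341 and 0.566 FPKM (log2 change 3.31). Fabp3 entered the test through Cre + NFIA alone. Dbi, Fabp5 and Fabp4 were the others. Fabp4 was the most abundant, at 14490, 14710 and 14650 FPKM against 5365, 6611 and 2914 FPKM (log2 change 1.64, SE 0.354), and it fell short of the limit at 1.30 without replicate 3 of the libraries labelled Cre and at 0.47 after quantile normalization. Without that library 3 of the 12 were called.

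In fatty acid synthesis 4 of 15 rose (26.7%, beside 2.26% of all genes, median 1.35). Scd1, the desaturase, was at 1862, 1977 and 1977 FPKM against 256, 347 and 162 FPKM (log2 change 2.99), and Thrsp, Acss2 and Elovl3 had log2 changes of 2.56, 2.38 and 2.06. Among lipolysis and beta-adrenergic genes 4 of 12 rose (33.3%, median 1.19), with Adrb3, the beta-3 adrenergic receptor of fat, at 58.8, 61.1 and 61.8 FPKM against 9.04, 11.1 and 4.70 FPKM (log2 change 2.80). The 3 lipases that cleave stored fat in turn, Pnpla2, Lipe and Mgll, had log2 changes of 1.81, 1.77 and 1.86, and 2 of the 4 calls were left without replicate 3 of the libraries labelled Cre. Among lipid droplet proteins Plin5 alone was called of 13 (7.69%, log2 change 2.55), although 11 were higher by the adjusted p alone and the median was 1.26. Plin4, G0s2 and Fitm2 lay just under the limit at 1.57, 1.58 and 1.54, and 4 members were called when scaled by median-of-ratios size factors, while 4 and 5 were called without replicates 1 and 2 of the libraries labelled Cre.

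**Figure D3:**
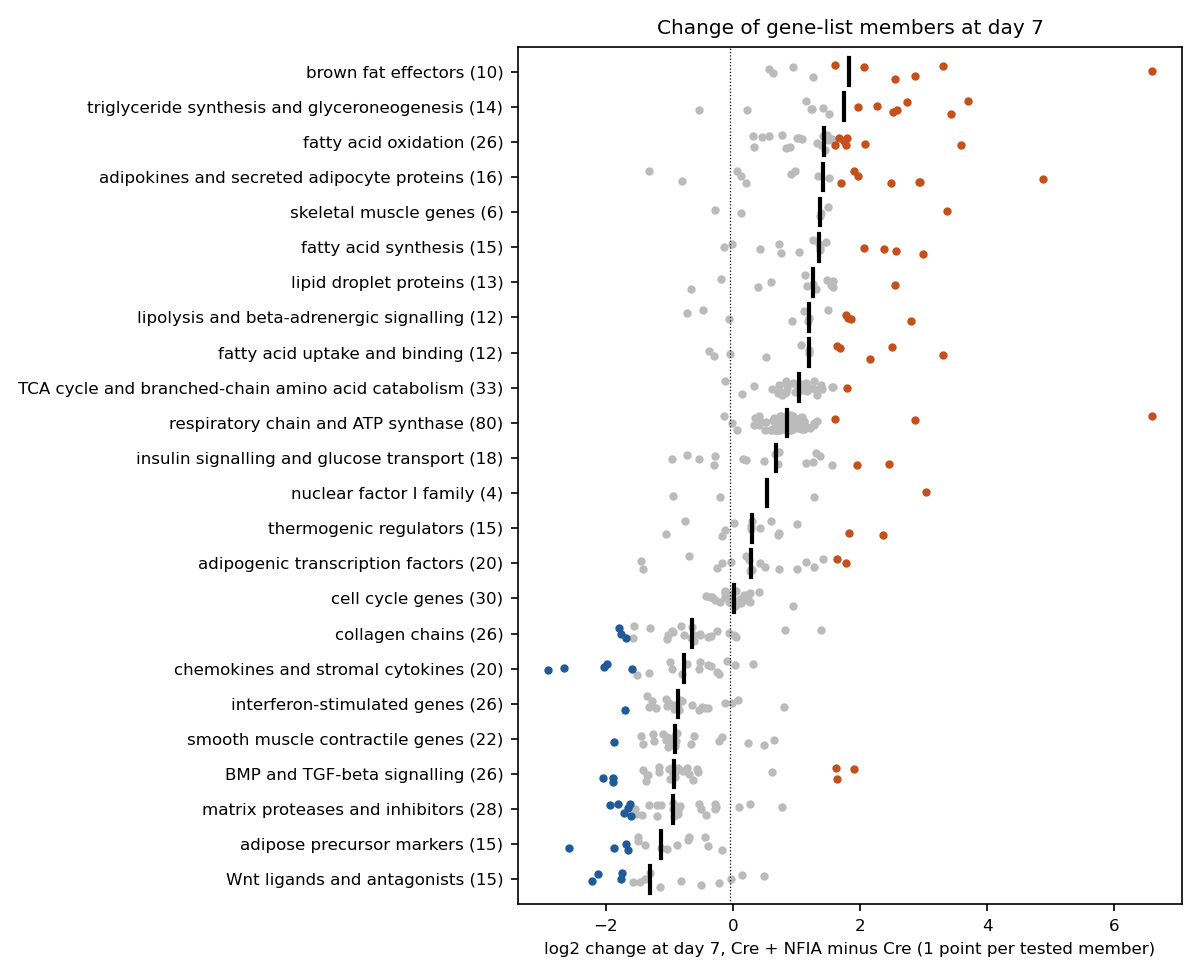
Each row is a gene list with its number of tested members and each point 1 member, placed at its log2 change at day 7 (Cre + NFIA against libraries labelled Cre). Orange members were called higher, blue lower and grey not called, black bars are list medians and the dotted line is the median of all genes tested, -0.05. Brown fat effectors have the highest median, 1.83, and Wnt ligands and antagonists the lowest, -1.30. Only 10 of the 24 brown fat effectors were tested, and of these Cox8b, Fabp3 and Otop1 entered the test through Cre + NFIA alone. Some genes stand in more than 1 row, among them Cox8b, Cox7a1, Fabp3, Elovl3 and Plin5.

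Brown fat effectors, the genes of heat production and its fuel, had the highest median of the 24 lists (1.83). Of 24 members 10 were tested, 6 of these rose and none fell, and all 10 were higher by the adjusted p alone. The other 14 were not tested, and 3 of the 6 calls, Cox8b, Fabp3 and Otop1, entered the test through Cre + NFIA alone and had to be higher there, so neither the median nor the count supports a change of the list. Besides Cox8b and Fabp3 these were Cox7a1, a muscle-type and brown fat subunit of cytochrome c oxidase at 13.0, 14.7 and 15.3 FPKM against 0.683, 1.49 and 1.24 FPKM (log2 change 2.86), Plin5, Elovl3 and Otop1, at log2 changes of 2.55, 2.06 and 1.60. Ucp1, the uncoupling protein that defines brown fat, was too low to be tested, at 0.815, 0.634 and 1.17 FPKM in Cre + NFIA and 0.254, 0.133 and 0 FPKM in libraries labelled Cre, with at most 28 reads in a library. Cidea was listed at 0.256, 0.483 and 0.646 FPKM in Cre + NFIA and at 0 in the 3 libraries labelled Cre. A count of 0 in those libraries allows up to 0.282 FPKM.

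Thermogenic regulators were mixed, with 2 of 15 tested members called higher, none lower, and a median of 0.29. Both called genes were under 1 FPKM in all 3 libraries labelled Cre, entered the test through Cre + NFIA alone and thus had to be higher there. Ppargc1a, the coactivator of mitochondrial biogenesis, was at 5.91, 6.14 and 5.55 FPKM in Cre + NFIA and 0.531, 0.332 and 0.165 FPKM in libraries labelled Cre (log2 change 2.36, SE 0.122, limma adjusted p = 1.57e-08). Ppara, a nuclear receptor of fatty acid oxidation, was at 4.33, 4.72 and 4.52 FPKM against 0.764, 0.493 and 0.457 FPKM (log2 change 1.82, SE 0.12). Both are low genes and with a pseudocount of 5 their values were 1.02 and 0.77, under the limit. Prdm16, a determinant of brown fat identity, and Ebf2 had log2 changes of 0.43 and 0.28, while Tbx15 had one of -1.06.

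Mitochondrial genes moved by smaller steps. Of 80 tested subunits of the respiratory chain and ATP synthase 77 were higher by the adjusted p alone and none lower, with a median of 0.85, but only 3 reached 3-fold (3.75%, beside 2.26% of all genes). These were Cox8b, Cox7a1 and Cycs, which encodes cytochrome c and was not called without replicate 3 of the libraries labelled Cre (1.39), without replicate 2 of Cre + NFIA (1.57), after quantile normalization (1.49) or with a pseudocount of 5 (1.51). Widely expressed subunits such as Cox4i1 and Atp5b had log2 changes of 0.92 and 1.08. In fatty acid oxidation 7 of 26 rose (26.9%) and 25 were higher by the adjusted p alone (median 1.43). Acaa1b, a peroxisomal thiolase, was at 121, 130.4 and 147 FPKM against 9.84, 14.1 and 7.27 FPKM (log2 change 3.59). Acadm, a mitochondrial dehydrogenase of the pathway, was at 308, 314 and 296 FPKM against 72.6, 92.5 and 54.1 FPKM (log2 change 2.09). Without replicate 3 of the libraries labelled Cre 4 of the 26 were called. In the TCA cycle and branched-chain amino acid catabolism 32 of 33 were higher by the adjusted p alone (median 1.04) and 1, Pcx, was called, with a log2 change of 1.80, a count that was 0 without replicate 3 of the libraries labelled Cre, 3 without replicate 1 or 2 of them and 2 without replicate 3 of Cre + NFIA.

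Of 16 tested adipokines 7 rose (43.8%, beside 2.26% of all genes), with a median of 1.42. Retn, resistin, was at 488, 495 and 440.3 FPKM in Cre + NFIA and 71.3, 94.9 and 34.4 FPKM in libraries labelled Cre (log2 change 2.92, SE 0.348). Orm1, an acute phase protein, was at 172, 176.5 and 167 FPKM against 22.2, 37.3 and 11.9 FPKM (log2 change 2.94, SE 0.35). Adipoq, adiponectin, was at 1811, 1725 and 1821 FPKM against 522, 655 and 319.8 FPKM (log2 change 1.90, SE 0.348). In these genes the Cre + NFIA libraries lay close together and the libraries labelled Cre were spread, with replicate 3 the lowest. Sparcl1 and Lcn2 were lower by the adjusted p alone, at -1.33 and -0.80. In insulin signalling 2 of 18 rose (11.1%, beside 2.26% of all genes), and 12 were higher and 5 lower by the adjusted p alone. Slc2a4, the insulin-responsive glucose transporter, was among the calls (log2 change 1.95), while Slc2a1, the basal glucose transporter, had a log2 change of -0.96.

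Calls among genes of precursors and of the extracellular matrix were falls. Of 15 tested adipose precursor markers 4 fell (26.7%, beside 1.59% of all genes), none rose and 14 were lower by the adjusted p alone, with a median of -1.14. Pdgfrb, the platelet-derived growth factor receptor of stromal cells, was at 23.0, 21.7 and 25.1 FPKM in Cre + NFIA and 73.2, 66.2 and 89.4 FPKM in libraries labelled Cre (log2 change -1.66), and its value of -1.545 without replicate 3 of the libraries labelled Cre was under the limit. F3, Cd9 and Dlk1 were the other calls. With a pseudocount of 5 F3 alone stayed called, with Pdgfrb and Cd9 at -1.516 and Dlk1 at -1.49. Decorin, Dcn, was at 11.8, 9.84 and 9.85 FPKM against 12.1, 13.4 and 10.7 FPKM, and these groups overlapped.

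Of 26 collagen chains 3 fell (11.5%, beside 1.59% of all genes, median -0.65) and 21 were lower by the adjusted p alone. These were Col12a1, at 17.4, 18.4 and 19.9 FPKM against 71.2, 56.1 and 73.0 FPKM (log2 change -1.79), Col7a1 and Col16a1. Col1a1, a chain of the main fibrillar collagen, was at 256, 277 and 304 FPKM against 792, 776 and 921 FPKM, a log2 change of -1.57 that lay at the limit, and 5 chains were called after quantile normalization, without replicate 3 of Cre + NFIA or without replicate 2 of the libraries labelled Cre. With a pseudocount of 5 only Col12a1 stayed called, with Col7a1 at -0.95 and Col16a1 at -1.53. Col15a1, a basement membrane collagen of fat, went the other way at 1.39. Of 28 matrix proteases and inhibitors 6 fell (21.4%) and none rose (median -0.95). Plat, tissue plasminogen activator, was at 26.4, 23.7 and 28.2 FPKM against 101.8, 96.0 and 111 FPKM (log2 change -1.94), and Timp2, Mmp14, Mmp11, Ctsk and Timp1 had log2 changes between -1.81 and -1.61. With a pseudocount of 5 Mmp11, Ctsk and Timp1 were not called, which left 3.

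Of 20 tested chemokines and cytokines 5 fell (25.0%, beside 1.59% of all genes) and none rose (median -0.77), among them Ptn and Il1rl1. Ccl2, a monocyte chemoattractant, was at 112, 86.2 and 107 FPKM in Cre + NFIA and 435, 356 and 429 FPKM in libraries labelled Cre (log2 change -1.99). Ccl7 and Csf1, which act on the same lineage, had log2 changes of -2.03 and -1.59. Of the macrophage markers Adgre1 and Ptprc were at 0, and Cd68 was at 4.48, 5.40 and 3.78 FPKM in Cre + NFIA against 6.29, 4.12 and 5.30 FPKM. Csf1r, the receptor of Csf1, was lower without overlap, at 0.231, 0.0828 and 0.0882 FPKM against 0.925, 1.07 and 0.771 FPKM. It was too low to pass the filter, and Itgam had at most 2 reads in a library. The part of these markers in the falls was not tested. Of 15 Wnt ligands and antagonists 4 fell (26.7%) and none rose (median -1.30). Besides Sfrp1 these were Sfrp2, at 45.5, 39.0 and 42.1 FPKM against 189, 181 and 191 FPKM (log2 change -2.12), Wisp1 and Nkd2. Wisp1 (-1.02) and Nkd2 (-0.73) were not called with a pseudocount of 5, which left 2, and Nkd2 entered the test through libraries labelled Cre alone. The ligands Wnt2 and Wnt16 had log2 changes of -1.46 and -1.39, under the limit.

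In BMP and TGF-beta signalling 3 of 26 rose (11.5%, beside 2.26% of all genes) and 3 fell (11.5%, beside 1.59%), with a median of -0.93. The BMP antagonist Grem1 fell, with a log2 change of -2.05, and Ctgf, a matrix-associated TGF-beta target, fell by 1.89. The BMP antagonist Chrdl1 rose by 1.90, the receptor gene Acvr1c of mature fat cells by 1.64 and the ligand gene Bmp4 by 1.62. Bmp4 entered the test through Cre + NFIA alone. With a pseudocount of 5 none of the 6 was called.

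The muscle genes that could be tested did not share a direction. Of 22 tested smooth muscle contractile genes 1 fell, Cnn2 (4.55%, beside 1.59% of all genes, log2 change -1.88), and 19 were lower by the adjusted p alone (beside 36.6% of all genes, median -0.92). Myl9, a regulatory myosin light chain, was at 23.5, 23.2 and 28.6 FPKM in Cre + NFIA and 66.2, 68.9 and 71.3 FPKM in libraries labelled Cre (log2 change -1.42, SE 0.106), under 3-fold. Myh11, Mylk and Myh10 were higher by the adjusted p alone, at 0.64, 0.49 and 0.23. Of 33 skeletal muscle genes 6 were tested and 16 had at most 3 reads in every library. Tnnc2, a fast-fibre troponin, was the only call (16.7% of those tested, beside 2.26% of all genes). It was at 14.1, 14.1 and 12.3 FPKM in Cre + NFIA against 0.723, 0.158 and 0.393 FPKM (log2 change 3.36, SE 0.17). It entered the test through Cre + NFIA alone and thus had to be higher there. Acta1 had a log2 change of 1.38 and Myl1 one of 1.36, but Myl1 held only 86 reads over the Cre + NFIA libraries and 4 over those labelled Cre. Without replicate 2 of Cre + NFIA 2 of the 6 were called. Myod1, the myogenic master factor, had 0 reads in the 6 libraries, which allows up to 0.205 to 0.328 reads per 1000000, and Myog had at most 3 reads in a library.

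Of 26 interferon-stimulated genes 1 fell (3.85%, beside 1.59% of all genes) and none rose, and 22 were lower by the adjusted p alone (beside 36.6% of all genes, median -0.87). Mx1 was at 4.55, 2.27 and 3.86 FPKM against 13.5, 13.0 and 13.8 FPKM (log2 change -1.70). It was not called without replicate 2 of Cre + NFIA (-1.47) or with a pseudocount of 5 (-1.12). None of 30 cell cycle genes was called in either direction, with 9 higher and 6 lower by the adjusted p alone, and their median of 0.015 turned to -0.024 after quantile normalization.

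The same pair of groups before differentiation shows which differences were already there. At day 0, on other libraries, 59 genes were called (0.495% of those tested), 39 higher (0.327%) and 20 lower (0.168%). The genes tested were those that passed the day 7 filter, so genes expressed only in precursors are not in these counts. Of the 269 genes higher at day 7, 8 were also higher at day 0 (2.97% of them and 20.5% of the day 0 calls), and of the 190 lower genes 11 were also lower at day 0 (5.79% and 55.0%). These overlaps leave out day 0 differences under 3-fold. Each of the 12 largest falls was lower at day 0 by the adjusted p alone, among them Sfrp1 at -1.20 and Smoc2 at -0.43. The share of all genes that passed that p alone at day 0 was not counted. No gene was called in opposite directions. Genes called higher at day 7 had a median log2 change of 0.05 at day 0, and genes called lower one of -0.62, beside 0.02 for all genes tested. In precursors the median of the lower genes was thus already below that of all genes, while the median of the higher genes was near it.

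The 8 genes higher on both days were Angpt4, Bmp4, Hsd11b1, Nfia, Orm3, Rgs2, Steap4 and Wfdc21. Hsd11b1, which activates glucocorticoids, had 6.49, 8.14 and 6.33 FPKM in the day 0 libraries of Cre + NFIA, and 1.50, 1.43 and 1.73 FPKM where the label was Cre. By day 7 Hsd11b1 had 98.0, 108 and 96.2 FPKM in the former and 13.2, 13.2 and 9.84 FPKM in the latter. The log2 changes of Hsd11b1 were 1.64 and 2.97. Bmp4, a ligand of early adipocyte commitment, had 12.8, 11.5 and 14.0 FPKM in Cre + NFIA before differentiation, then 2.71, 2.03 and 2.43 FPKM after it. Where the label was Cre, Bmp4 had 0.526, 0.251 and 0.243 FPKM on the first of these days, and 0.0405, 0.212 and 0.0440 FPKM on the second. The log2 change of Bmp4 was larger at day 0 (3.36) than at day 7 (1.62), a difference of -1.74 (SE 0.185, limma adjusted p = 1.38e-07). Angpt4, an angiopoietin, had 10.8, 11.0 and 10.9 FPKM in Cre + NFIA at day 0, and by day 7 9.65, 8.96 and 9.65 FPKM. Its log2 changes were 1.98 and 1.91.

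The 11 genes lower on both days were Abi3bp, Cacna1g, F3, Igf2, Il1rl1, Lrrc17, Pcp4l1, Prl2c2, Ptn, Slc7a8 and Tmem119. Ptn was at 72.1, 78.9 and 86.7 FPKM in Cre + NFIA before differentiation and at 574, 612 and 533 FPKM where the label was Cre, a log2 change of -2.84, close to its day 7 value. Igf2, an insulin-like growth factor, was at 0.787, 0.655 and 0.845 FPKM against 6.02, 6.11 and 6.44 FPKM before differentiation, then at 1.32, 0.939 and 1.33 FPKM against 8.93, 6.11 and 7.96 FPKM at day 7. Its log2 changes were -2.03 and -1.97. For both genes the day 0 groups lay as far apart as the day 7 groups.

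Whether a difference itself changed from day 0 to day 7 was tested by the interaction term of a model with both days. It was called for 350 genes (2.94%), 212 with a higher value at day 7 (1.78%) and 138 with a lower one (1.16%). By the adjusted p alone 50.6% of genes passed, 19.7% higher and 30.8% lower. Of the genes called higher at day 7, 180 were among the 212, and of those called lower 37 were among the 138, though the interaction uses the day 7 contrast and is not independent of it. All of the 12 largest rises were among the former, and of the 12 largest falls Slc6a17 and Smoc2 alone were among the latter. Cox8b and Cyp2e1 had 0 reads in the Cre + NFIA libraries and the libraries labelled Cre at day 0. Cbr2 had a log2 change of -0.59 at day 0, opposite to day 7, at 12.4 ± 0.860 (SD, n = 3) FPKM in Cre + NFIA against 19.2 ± 0.840 FPKM.

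**Figure D4:**
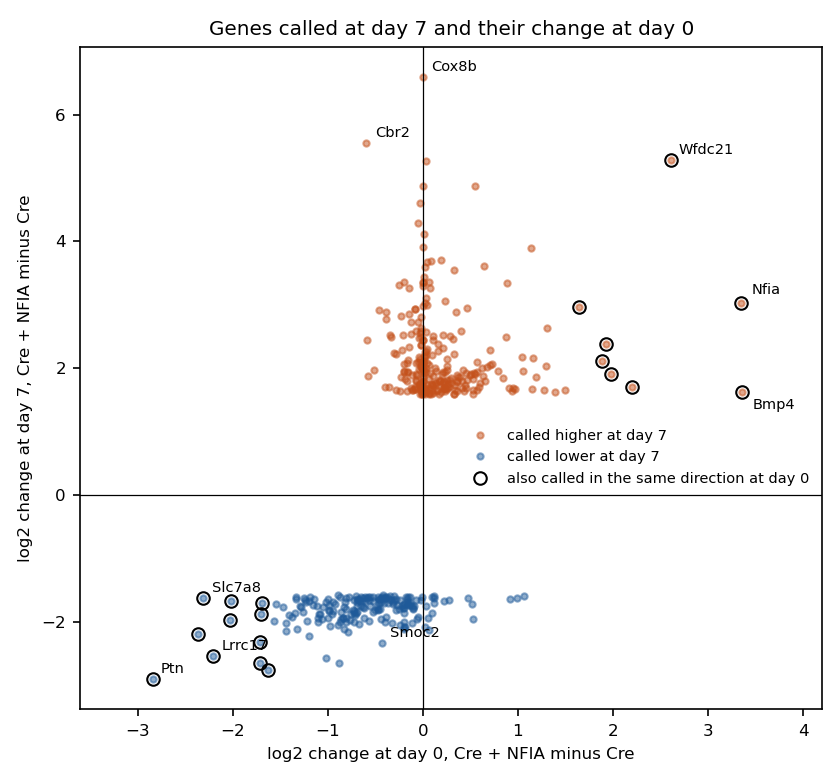
Each point is 1 of the 459 genes called at day 7, with its log2 change at day 0 on the horizontal axis and at day 7 on the vertical axis, both as Cre + NFIA against libraries labelled Cre. Orange points were called higher and blue points lower at day 7, and black rings mark the 8 higher and 11 lower genes also called at day 0. The orange points centre on a day 0 change of 0.05 and the blue points on -0.62. Nfia and Bmp4 lie far to the right and Ptn far to the left.

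Levels in ctrl cells give a scale for the levels in Cre + NFIA. This comparison shares the Cre + NFIA libraries with the one above, so its values are given on their own. Against ctrl 36 genes passed the call rule (0.302%), of which 32 (0.268%) had the higher level in Cre + NFIA and 4 (0.0335%) the lower. Nfia, whose reads include the transgene, was among the 32, with a log2 difference of 3.11 (SE 0.0719), so it was not at the ctrl level. Pparg, Adipoq and Fabp4 did not pass the test against ctrl, with Pparg at 50.1, 51.2 and 54.8 FPKM in ctrl and a log2 difference of 0.20 (SE 0.183, limma adjusted p = 0.49), Adipoq at one of -0.08 (SE 0.348) and Fabp4 at one of -0.26 (SE 0.354). A p that misses the threshold does not show that these levels were equal. Cox8b was at 9.87, 14.4 and 12.7 FPKM in ctrl, between both groups, and Cre + NFIA exceeded ctrl by 3.08 on the log2 scale (SE 0.128). Cyp2e1 was at 0.328, 0.274 and 0 FPKM in ctrl, and the excess was 4.67 (SE 0.137). Hoxb13 was at 2.02, 2.58 and 1.60 FPKM in ctrl with an excess of 3.37 (SE 0.105), and Rbp4 at 78.8, 87.9 and 84.8 FPKM with one of 1.93 (SE 0.195). Ppargc1a was at 1.14, 1.49 and 1.70 FPKM in ctrl, with a difference of 1.50 (SE 0.122) that was under 3-fold. Of genes that fell, Ptn was at 149, 127 and 127 FPKM in ctrl, also above Cre + NFIA, with a difference of -0.98 (SE 0.0771).

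The Δpro#3 protein was expressed from the same kind of vector, with Nfia at 111, 99.5 and 95.0 FPKM at day 7. Pparg was at 6.38, 9.29 and 11.4 FPKM in these cells, Fabp4 at 494, 1271 and 1362 FPKM and Cox8b at 0.236, 0.456 and 0.217 FPKM, each below every Cre + NFIA library. Rbp4 was at 1.52, 2.74 and 3.22 FPKM and Ppargc1a at 0.0910, 0.201 and 0.179 FPKM. Pparg, Fabp4 and Rbp4 were also below every library labelled Cre, while Cox8b and Ppargc1a overlapped with those libraries. Ptn was at 364, 348 and 378 FPKM, above every Cre + NFIA library and below every library labelled Cre. These values are set side by side and were not tested here.

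**Figure D5:**
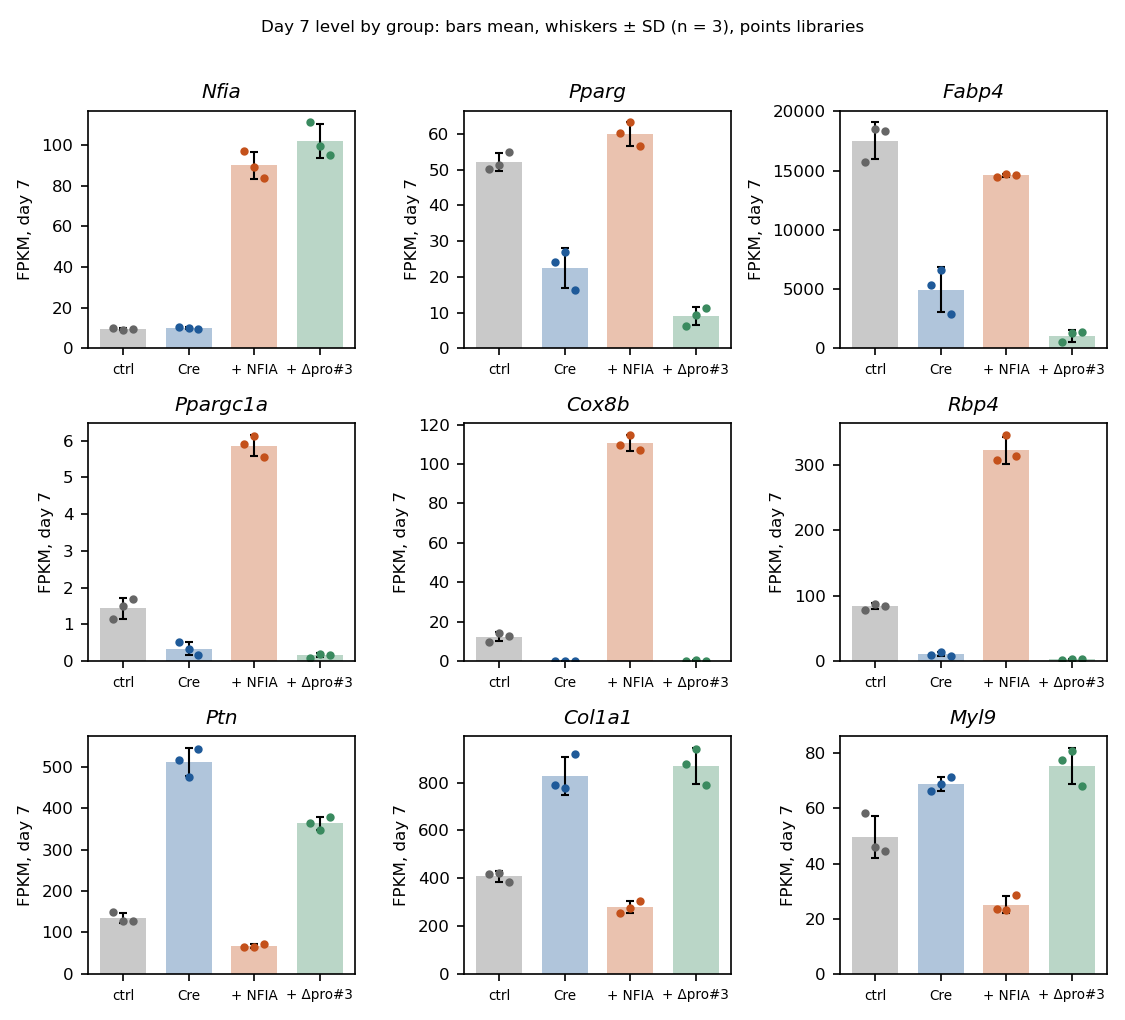
The 9 panels show FPKM at day 7 in ctrl, libraries labelled Cre, Cre + NFIA and Cre + NFIA Δpro#3. Bars are means, whiskers ± SD (n = 3) and points the libraries, and each axis starts at 0. Nfia was about as high in Cre + NFIA (mean 90.0 FPKM) as in Cre + NFIA Δpro#3 (mean 101.9 FPKM). Pparg, Fabp4, Ppargc1a, Cox8b and Rbp4 were lowest with Δpro#3 or in libraries labelled Cre, and Ptn, Col1a1 and Myl9 were lowest in Cre + NFIA.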

How the data were processed

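RNA-seq libraries were made with a stranded mRNA kit. The authors aligned reads to mm9 with STAR 2.5.3a, kept unique alignments, counted reads on the matching strand and deposited FPKM per gene. The gene annotation they used is not given in the sources used here. FPKM, length and library total gave back whole reads for 100% of values under 100 reads (tolerance 0.01 read). The comparison, its gene lists and the named genes were chosen with earlier results of these data known. Values were log2(FPKM + 1), which understates the change of low genes, and genes with at least 1 FPKM in 3 of the 6 libraries were fitted with limma 3.58.1 (R 4.3.3, mean-variance trend, two-sided tests). The 12 day 7 libraries shared 1 spread and the interaction used all 24. limma was tested on simulated data.

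Named genes are the 12 largest called rises and 12 largest falls with no overlap between groups, a mean of at least 5 FPKM in the higher group and at least 200 bases, Nfia and date-like symbols (26 rows) left out, the genes the study is about, and in each list up to 4 members with the largest change. Genes named for both days, those lower than in ctrl and further list members were chosen after their values were seen. Libraries of a group differed by more than sampling noise (chi-square per degree of freedom 3.04 to 12.99), so none repeated another. Intervals cover counting error only. Positions are from GENCODE vM1 on NCBIM37 (116 of 117 named genes). Pseudocounts, filters, scalings, thresholds, limma voom on recovered reads, a replicate block and single libraries left out were the alternatives. Some members of the gene lists are not reported here by name.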

Additional observations from a re-analysis of the deposited data

Results flagged for a closer look

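Genes whose Cre + NFIA minus Cre difference was itself different at day 7 from that at day 0 are given here. They were called by the limma interaction test together with the 3-fold limit, and values are the log2 difference between days. There were 212 genes with a higher and 138 with a lower value at day 7. The largest rises and falls were picked for their day 7 change, which this test contains, so their values here are not separate support. Among the largest rises the values were 6.59 for Cox8b, 6.15 for Cbr2, 5.23 for Ces1d, 4.87 for Cyp2e1, 4.63 for Hoxb13, 4.34 for Ppp1r1a, 4.32 for Rbp4, 4.10 for Nos3, 3.92 for Ces1f and 3.52 for Chdh. Cbr2 had a log2 change of -0.59 at day 0, opposite to day 7. For the other genes among these 10 nearly the whole difference was seen at day 7, with day 0 changes of at most 0.55 (Rbp4). Wfdc21 (2.67) and Pla2g2e (2.75) had part of it at day 0, with log2 changes of 2.61 and 1.14 there. Ppargc1a had a value of 2.38, Ppara of 1.89 and Nfib of 1.82, and the log2 change of Nfib at day 0 was -0.56. Cox8b, Cyp2e1, Hoxb13, Chdh, Ppargc1a and Ppara entered the test through Cre + NFIA alone. Among the largest falls Smoc2 (-1.91) and Slc6a17 (-1.78) alone passed the 3-fold limit. Dlk1 (-1.56), Lrrc32 (-1.38), Prl2c2 (-1.14), Sfrp1 (-1.02), Il1rl1 (-0.95), Msi1 (-0.70) and Abi3bp (-0.62) passed the adjusted p of that test alone. Ptn, Lrrc17 and Cacna1g did not.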

How the results depend on the processing

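The counts of 269 higher and 190 lower genes at day 7 moved by over 1.5 times with a pseudocount of 0.1 (416 and 425) or 5 (116 and 47), with limma voom on recovered reads (428 and 460), a 2-fold limit (744 and 867), no fold limit (3377 and 4370) and no fold limit with median-of-ratios size factors (3920 and 3803). For the day 7 minus day 0 difference (212 and 138) they were 338 and 316, 99 and 41, 663 and 715, 2351 and 3678, and 3032 and 2866 under the same settings other than voom, which gave 305 and 359. Leaving out 1 library gave 212 to 337 higher and 165 to 208 lower genes at day 7, and 173 to 264 and 123 to 158 for the difference between days. The other scalings, filters and sample sets kept the counts within 1.5 times. Size factors and the block for day 0 and for ctrl, added after seeing the data, did too. Over 2005 values of named genes under alternatives 1933 kept their side of the limit, 34 lost it and 38 gained it, with no change of sign. The median of cell cycle genes changed sign after quantile normalization (-0.024) and without replicate 2 of Cre + NFIA (-0.009) or of Cre (-0.005), with a range of -0.009 to 0.033 over single libraries left out. The cause was not tested.

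Replicate numbers recur in the labels without a stated pairing. Deviations of same-numbered libraries correlated at 0.002, -0.023 and 0.048, and libraries did not all correlate best with their own number, so the numbers were not taken as pairs, and a replicate block left 269 and 190 genes at day 7 and 212 and 138 for the difference between days. Depth limits genes such as Ucp1, Cidea and Myog, which had few reads.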

Other observations

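Some genes that Cre + NFIA did not bring to the ctrl level were seen beside the comparisons above, and they were chosen after their values were seen. The 4 genes called lower in Cre + NFIA than in ctrl at day 7 were Bcas1, Car3, Igf2 and 4631405J19Rik. Car3, a carbonic anhydrase abundant in fat, was at 38.7, 44.7 and 33.6 FPKM in Cre + NFIA. Ctrl cells had 128, 166.5 and 157 FPKM, and 20.9, 28.9 and 11.4 FPKM were seen where the label was Cre. Its log2 difference from ctrl was -1.92 (SE 0.305, limma adjusted p = 0.00108), and against libraries labelled Cre the log2 change was 0.98, under the 3-fold limit. Bcas1 was at 2.53, 2.73 and 2.72 FPKM in Cre + NFIA and at 10.1, 11.1 and 11.7 FPKM in ctrl, beside 2.32, 2.26 and 1.26 FPKM where the label was Cre. Igf2 was lower in Cre + NFIA than in both, at 6.13, 5.28 and 5.41 FPKM in ctrl. Gpx3, a secreted glutathione peroxidase, lay the other way, with a mean of 48.2 FPKM in Cre + NFIA, 13.2 in ctrl and 86.1 in libraries labelled Cre.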
